A study of Rattus norvegicus and Heterocephalus glaber with 6 samples.

Results

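The enzymes that break down amino acids were examined in the livers of rats held at 8% oxygen for 8 hours. The set comprised 49 genes, listed by symbol, of amino acid breakdown outside the urea cycle, and its members were taken as the rows of the deposited tables that carry these symbols. Of the 49, 46 had a row in the rat tables, 1 (ACAD8) was found for naked mole rat, and 0 were found for both. Each table had 22549 rows in rat and 734 rows in naked mole rat, so the set could be described across nearly all of its members in rat and in 1 gene in naked mole rat.

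Polyadenylated liver RNA was sequenced from rat and from naked mole rat, a burrowing rodent, after the same exposure, with 3 libraries per species (rat 1 to rat 3 below, by the replicate number in the labels). Strain, age and genotype are not given in the labels used here, and normoxia libraries, which the design of the series mentions, were not analysed here. No effect of low oxygen could therefore be measured, and every value below describes a liver after the exposure. Nothing in the labels says that libraries of a species came from separate animals, so spreads and p-values describe these samples and may be in part technical. Levels are FPKM, fragment numbers scaled for transcript length and library total. This unit corrects for transcript length, so that levels of different genes can be set side by side, but it carries no counts, and the depth of the libraries is unknown. Where 3 rat values stand together without library names, they belong to rat 1, rat 2 and rat 3 in that order.

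The liver is the main organ in which most amino acids are degraded. Aminotransferases move the amino group onto a keto acid, and the remaining carbon skeleton is taken apart by a pathway particular to each amino acid, ending in pyruvate, intermediates of the citric acid cycle or acetyl groups. The branched-chain amino acids are known as the exception, because their first step is carried out largely in muscle and the liver takes over at the keto acids. The nitrogen released in the liver enters the urea cycle.

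Rat hepatocyte markers were at high levels in each library. Of 10 listed, 9 had a row, all above 10 FPKM, and their sums were 45844, 44294 and 44883 FPKM in rat 1, rat 2 and rat 3. Sums of 7 Kupffer cell or macrophage markers were 194, 206 and 263 FPKM, with Marco listed at 0. The other lists were lower, at 92.9, 88.4 and 86.9 FPKM for sinusoidal endothelium, 19.4, 14.6 and 21.0 for stellate cells, 11.7, 12.9 and 16.7 for cholangiocytes, and 8.05, 11.2 and 15.5 for T or B cells. The erythroid list had only Hbb, at 54.4, 357 and 348 FPKM.

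Amino acid catabolic enzymes were among the abundant transcripts of the rat liver. Of the 46 genes with a row, 44 averaged 1 FPKM or more, 43 reached 10, 27 reached 100 and 3 reached 1000. The 27 make up 61.4% of the 44, against 6.63% of all 9994 rat rows that averaged 1 FPKM or more. The median member was at 129 FPKM, against 6.74 for all such rows. The 3 most abundant, Bhmt, Hpd and Mat1a, held 49.8%, 47.7% and 48.2% of the summed FPKM of the set in rat 1, rat 2 and rat 3.

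Among the listed enzymes, the branched-chain group had lower levels than the other amino acids. The 10 branched-chain genes at 1 FPKM or more had a median of 29.2 FPKM, and 2 of them reached 100. The 34 genes outside that group had a median of 166 FPKM, and 25 reached 100. In a wider list of 70 further genes of the same pathways this order did not hold, since 14 branched-chain genes there had a median of 69.8 FPKM, with 6 at 100 or more, against 54.8 FPKM over the whole list. By amino acid the medians of the listed enzymes were 479 FPKM for sulphur amino acids, 282 for the aminotransferases, 199 for aromatic amino acids, 170.2 for lysine (1 gene), 136 for proline, 119.7 for histidine and 71.0 for serine and glycine.

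**Figure D1:**
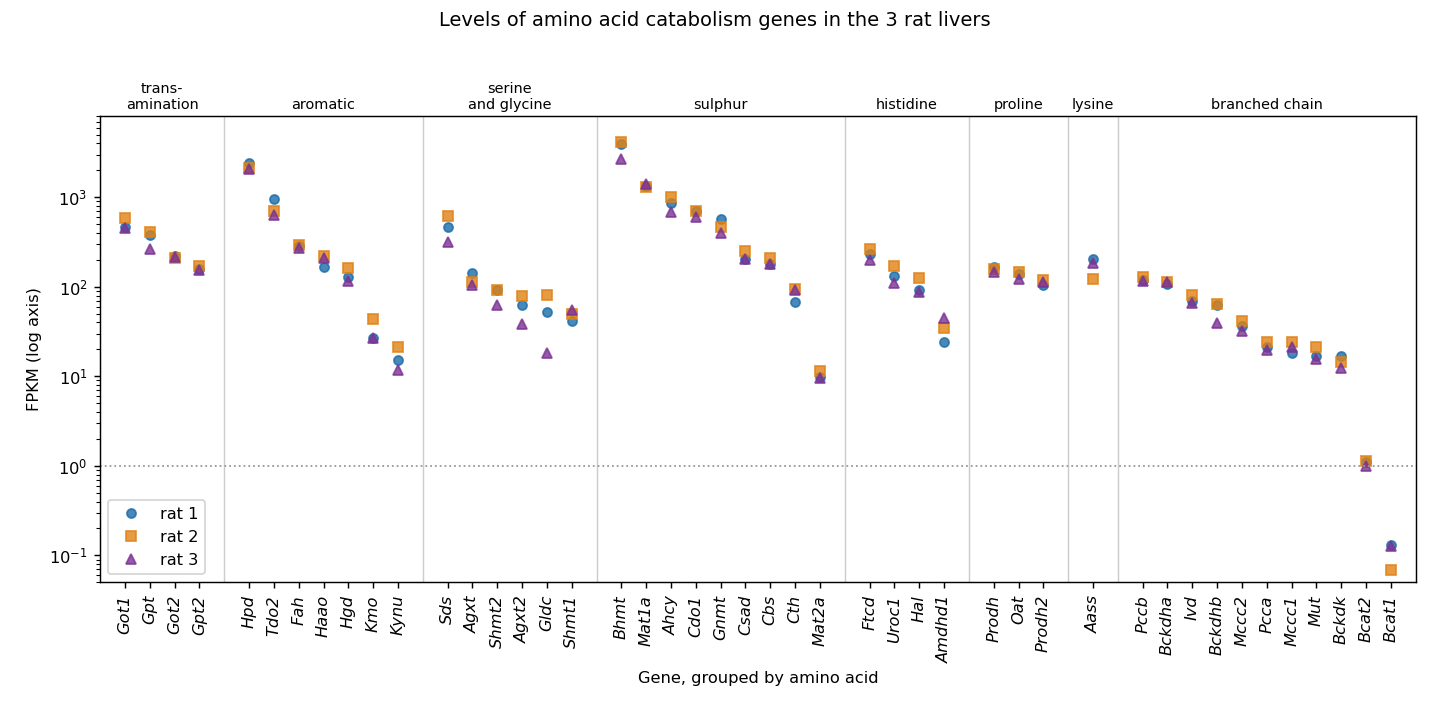
Rat liver FPKM of each enzyme on a log axis, grouped by amino acid; points are the 3 rat libraries. Bhmt, Hpd and Mat1a lie above 1000 FPKM, whereas 2 of 10 branched-chain genes at 1 FPKM or more reach 100.

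The aminotransferases shared between amino acids come first in these pathways. Got1, the cytosolic aspartate aminotransferase, was at 464, 590.2 and 458 FPKM (504 ± 74.6, SD, n = 3). Got2, its mitochondrial counterpart, was at 219, 212 and 214 FPKM, with the smallest spread of the 44 genes at 1 FPKM or more (SD of log2(FPKM + 1) 0.02). Gpt, the cytosolic alanine aminotransferase, was at 379, 406 and 264 FPKM. Rat 3 was the lowest for Got1 and Gpt, while the Got2 values lay within 1.03-fold of each other. Gpt2, the mitochondrial alanine aminotransferase, was at 160, 172 and 155 FPKM (162 ± 8.99, n = 3).

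Among genes of tryptophan breakdown, the first step had the highest level. Tdo2, which opens the tryptophan ring, was at 948, 713 and 642 FPKM. The next steps were lower in all 3 libraries. Kmo, which hydroxylates kynurenine, was at 26.7, 44.0 and 26.7 FPKM. Kynu, which cleaves the kynurenines, was at 15.1, 21.5 and 11.9 FPKM, a 1.81-fold range. Haao, a dioxygenase that acts further along, was at 166, 218 and 211 FPKM (199 ± 28.2, n = 3), so levels did not follow the order of the pathway.

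The tyrosine pathway was represented by Hpd, Hgd and Fah, which act in that order after tyrosine has lost its amino group. Hpd, which makes homogentisate, was at 2419.8, 2138 and 2047 FPKM, with 32 of 9994 rows higher. Hgd, which opens the homogentisate ring, was at 129, 164 and 115 FPKM, and Fah, the last enzyme, at 288, 296 and 272 FPKM. The row of Gstz1, the isomerase between Hgd and Fah, was not found under that symbol in the rat tables.

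The sulphur group contained the most abundant member. Bhmt, which remakes methionine from homocysteine with betaine as the methyl donor, was at 3984, 4120.5 and 2675 FPKM, and 20 of 9994 rows were higher. Rat 3 lay below both other libraries, which were within 1.03-fold of each other. Bhmt2, a gene with a similar sequence 14741 bp away on chromosome 2, was at 206, 270.1 and 186 FPKM, and reads can be split between such copies. Mat1a, the liver form of the enzyme that makes S-adenosylmethionine, was at 1345, 1314 and 1405 FPKM (1355 ± 46.6, n = 3). Mat2a, the form found in most other tissues, was at 9.75, 11.6 and 9.53 FPKM.

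From S-adenosylmethionine the pathway passes through Gnmt and Ahcy. Gnmt, which methylates glycine, was at 567, 470.0 and 399 FPKM, and its row overlaps that of Zfp318. Ahcy, which hydrolyses S-adenosylhomocysteine, was at 873, 1016 and 691 FPKM (859.96 ± 163, n = 3). Cdo1, which oxidises cysteine, was at 696, 701 and 609.5 FPKM. Csad, which makes hypotaurine from its product, was at 205, 253 and 204 FPKM. The transsulphuration genes Cbs and Cth, which convert homocysteine to cysteine, had means of 192 ± 18.0 and 85.0 ± 15.1 FPKM (n = 3).

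**Figure D2:**
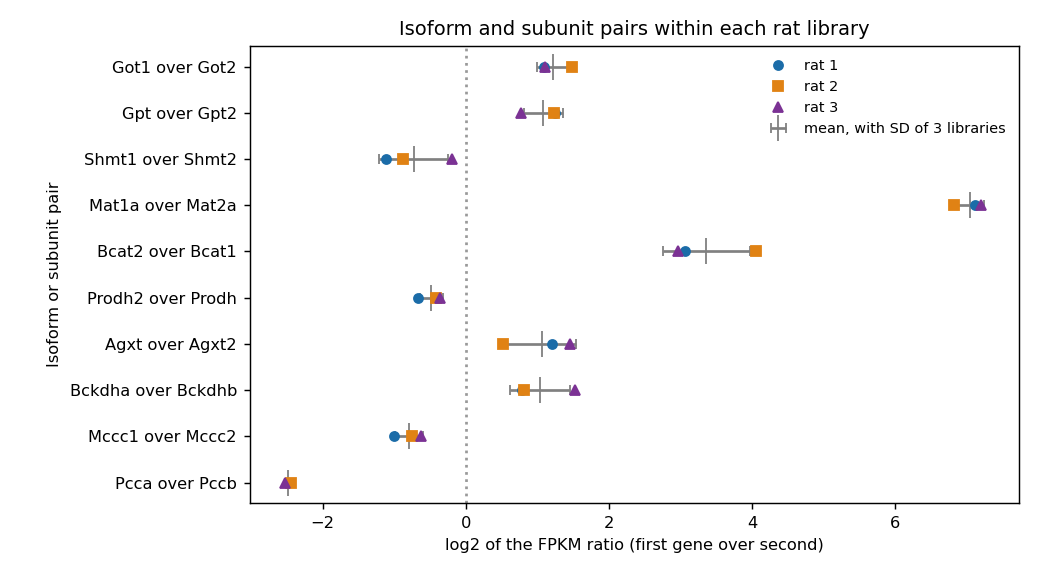
Log2 ratio of FPKM within each rat library for 7 pairs of similarly named enzymes (labelled isoform pairs) and 3 subunit pairs. Symbols are libraries, the tick is the mean and the whiskers are the SD (n = 3). Mat1a over Mat2a has the largest ratio, and Pcca over Pccb the smallest spread.

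The sequences just upstream of 4 genes are shown because these genes carry the contrasts described here: Mat1a and Mat2a, the pair with the largest difference in level, Bhmt, the most abundant enzyme, and Gldc, the enzyme with the largest spread between rats. Each is the 250 bases before the annotated start of the gene in RefSeq on the rat build GRCr8, 5′ to 3′ on the strand of the gene, with CpG dinucleotides in capitals. These coordinates were not matched to those of the deposited tables, whose build is not named in the sources used here. The regions are chr16:17016918-17017167 (plus strand) for Mat1a, chr4:106053613-106053862 (minus strand) for Mat2a, chr2:26614430-26614679 (minus strand) for Bhmt and chr1:237375605-237375854 (minus strand) for Gldc.
Mat1a: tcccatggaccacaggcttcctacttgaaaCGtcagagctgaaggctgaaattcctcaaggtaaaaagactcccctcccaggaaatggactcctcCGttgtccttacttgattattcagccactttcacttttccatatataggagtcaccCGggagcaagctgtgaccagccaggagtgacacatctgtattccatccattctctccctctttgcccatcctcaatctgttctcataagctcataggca
Mat2a: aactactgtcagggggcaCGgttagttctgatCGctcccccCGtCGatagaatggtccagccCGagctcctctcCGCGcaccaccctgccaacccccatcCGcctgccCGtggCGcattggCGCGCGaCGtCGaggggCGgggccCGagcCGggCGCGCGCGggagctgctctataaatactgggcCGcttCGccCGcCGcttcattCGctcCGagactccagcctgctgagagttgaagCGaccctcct
Bhmt: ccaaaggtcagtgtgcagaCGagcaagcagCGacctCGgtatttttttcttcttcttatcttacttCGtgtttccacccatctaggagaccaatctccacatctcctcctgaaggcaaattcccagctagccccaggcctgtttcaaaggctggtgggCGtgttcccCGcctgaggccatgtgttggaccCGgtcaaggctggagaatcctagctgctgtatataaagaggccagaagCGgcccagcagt
Gldc: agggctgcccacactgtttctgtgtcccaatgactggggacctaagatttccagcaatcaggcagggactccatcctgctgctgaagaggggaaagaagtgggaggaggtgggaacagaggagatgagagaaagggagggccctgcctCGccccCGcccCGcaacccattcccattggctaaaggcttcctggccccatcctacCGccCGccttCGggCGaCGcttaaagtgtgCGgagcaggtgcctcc

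The Mat1a window held 3 CpG and was 48.0% G or C, whereas the Mat2a window held 29 CpG and was 67.6% G or C. The Bhmt window held 8 CpG and the Gldc window 9. A RefSeq promoter was matched by symbol for 40 of the 49 genes. Their windows had a median of 10 CpG, against 6 over all 27455 rat promoters in the table, and 52.5% of them (21 of 40) held at least 10, against 38.4%. The median G or C content was 56.4%, against 52.0%.

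Motifs were searched on both strands of the same 250 bases, and matches of different motifs could overlap. The TATA motif TATAAA was in 17.5% of the 40 windows (7), against 13.1% of all promoters. The core of the hypoxia response element, ACGTG or GCGTG, was in 35.0% (14), against 37.9%. TTGCNNAA, a C/EBP type motif, was in 12.5% (5), against 9.20%. GTTAAT, a part of the HNF1 motif, was in 7.5% (3), against 6.46%. ACANNNTGT, a core of the glucocorticoid receptor motif, was in 2.5% (1 window, that of Tdo2), against 5.62%. These are letters in a window, and no binding was measured.

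Genes of serine and glycine breakdown included the most variable member. Gldc, the glycine decarboxylase of the mitochondrial glycine cleavage system (chromosome 1, 233846689 to 233925736 in the deposited tables), was at 52.6, 81.8 and 18.4 FPKM. Its 3 libraries were all apart, with a 4.45-fold range and an SD of log2(FPKM + 1) of 1.08. Amt, the aminomethyltransferase of the same system, was listed at 0 in all 3 libraries, on sequence outside the assembled chromosomes. All 831 rat rows on such sequence were at 0, and the row of Amt was therefore not read as a level. Sds, which converts serine to pyruvate, was at 461, 618 and 320.1 FPKM, and Agxt, an enzyme that removes glyoxylate, at 145, 113 and 106 FPKM.

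The remaining genes of this group were each under 100 FPKM in every library. Agxt2, a mitochondrial aminotransferase, was at 62.6, 78.9 and 38.9 FPKM. Shmt2, the mitochondrial serine hydroxymethyltransferase, was at 91.3, 91.7 and 62.8 FPKM. Shmt1, its cytosolic counterpart, was at 42.0, 50.1 and 55.1 FPKM. Rat 3 was the lowest library for Gldc, Sds, Agxt, Agxt2 and Shmt2, and the highest for Shmt1.

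The 4 genes of histidine breakdown act in the order Hal, Uroc1, Amdhd1 and Ftcd. Hal, which removes the amino group, was at 91.7, 127 and 87.4 FPKM. Uroc1, which hydrates urocanate, was at 132, 170.1 and 109 FPKM. Amdhd1, which opens the imidazolone ring, was at 24.1, 35.0 and 45.4 FPKM. Ftcd, which passes the one-carbon unit to folate, was at 235, 263 and 198 FPKM (232 ± 32.7, n = 3). Rat 3 was the lowest library for Hal, Uroc1 and Ftcd and the highest for Amdhd1. Hal and Amdhd1 lie 6221 bp apart on chromosome 7 (30520912 to 30551145 and 30557366 to 30572599 in the deposited tables).

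The proline genes varied little between rats. Prodh, the proline dehydrogenase, was at 168, 160.0 and 146 FPKM. Oat, the ornithine aminotransferase that links ornithine with proline, was at 139, 147 and 123 FPKM. Prodh2, which acts on hydroxyproline, was at 106, 119.9 and 113 FPKM. Their median SD of log2(FPKM + 1) was 0.10, against 0.21 over the members. Aldh4a1, which acts after Prodh, had no row under that symbol in the rat tables.

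Lysine breakdown was represented by Aass, which carries out the first steps of the saccharopine route. Aass was at 204, 124 and 183 FPKM, so rat 2 was the lowest and not rat 3. Of the 5 lysine genes of the wider pathway list, 3 were lowest in rat 3 (Aldh7a1, Gcdh and Dhtkd1), 1 in rat 1 (Dlst) and 1 in rat 2. The last was Pipox, which oxidises pipecolate, at 117, 71.6 and 102 FPKM. These genes were named after their values were seen.

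The branched-chain genes begin with Bcat1 and Bcat2, which remove the amino group, in the cytosol and in mitochondria. Bcat1 was near 0, at 0.131, 0.0686 and 0.129 FPKM, and Bcat2 was at 1.09, 1.145 and 1.003 FPKM. Of 9994 rows, 9864 were higher than Bcat2. The dehydrogenase complex that acts next was higher. Bckdha, the alpha subunit of its decarboxylase, was at 108, 114 and 114 FPKM, and Bckdhb, the beta subunit, at 62.9, 64.9 and 39.6 FPKM. The alpha values were within 1.05-fold of each other, whereas Bckdhb was 1.64-fold higher in rat 2 than in rat 3.

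Genes that set the activity of this complex were also measured. Bckdk, the kinase that inactivates it, was at 17.0, 14.4 and 12.3 FPKM, highest in rat 1. Ppm1k, the phosphatase that activates it and a gene outside the set, was at 7.76, 21.6 and 17.9 FPKM. Rat 1 therefore had the highest Bckdk and the lowest Ppm1k.

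Further along, Ivd, the isovaleryl-CoA dehydrogenase of leucine breakdown, was at 69.3, 80.6 and 65.9 FPKM. Mccc1 and Mccc2, the subunits of methylcrotonyl-CoA carboxylase, had means of 21.2 ± 3.10 and 36.7 ± 4.43 FPKM (n = 3). Pcca and Pccb, the subunits of propionyl-CoA carboxylase, were at 21.1, 23.9 and 19.9 FPKM and at 118, 129.5 and 115 FPKM. Mut, the methylmalonyl-CoA mutase that finishes this route, was at 17.9 ± 2.96 FPKM (n = 3). All 6 of these genes were highest in rat 2. The same held for 9 of the 10 branched-chain members at 1 FPKM or more, the exception being Bckdk, against 49.0% of all rows. After dividing each library by its median ratio over all rat rows it held for 6 of 10, against 36.4%.

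**Figure D3:**
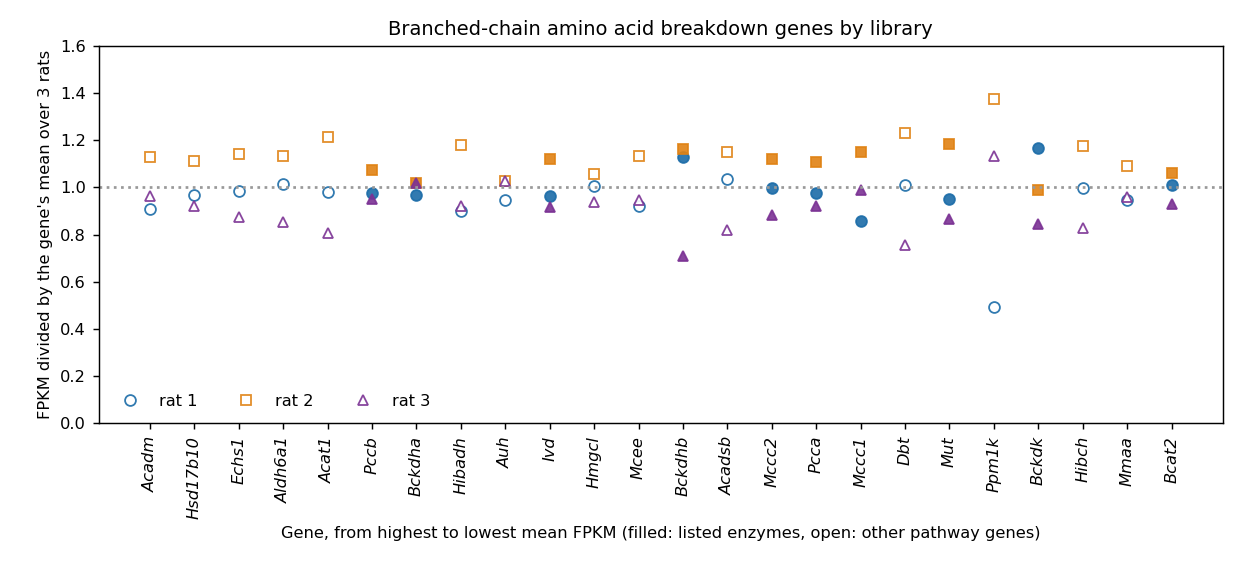
FPKM in each rat library divided by the mean of the gene over the 3 libraries, for the 24 branched-chain genes at 1 FPKM or more, from the highest mean to the lowest; filled symbols are listed enzymes and open symbols other pathway genes. Rat 2 is the highest for 23 of 24, Bckdk being the exception, against 49.0% of all rows at 1 FPKM or more. With the median-ratio scaling it is the highest for 18 of 24, against 36.4%. Ppm1k has its lowest value in rat 1.

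Similarly named enzymes and subunits were compared within each library. The similarly named pairs are not all isoforms of the same step, since Prodh2 acts on hydroxyproline. Mat1a was 138-fold, 113-fold and 147-fold the level of Mat2a in rat 1, rat 2 and rat 3 (log2 ratio 7.04 ± 0.20, SD, n = 3). Got1 exceeded Got2 by a log2 ratio of 1.22 ± 0.22, Gpt exceeded Gpt2 by 1.08 ± 0.27, Agxt exceeded Agxt2 by 1.06 ± 0.48 and Bckdha exceeded Bckdhb by 1.04 ± 0.42. Shmt1 was below Shmt2 (-0.73 ± 0.48), Mccc1 was below Mccc2 (-0.79 ± 0.20) and Prodh2 was below Prodh (-0.48 ± 0.16). Each of these had the same sign in 3 of 3 libraries. With n = 3, the libraries allow no exact test below 0.05, so the signs are a description.

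The propionyl-CoA carboxylase subunits had the steadiest ratio. Pcca was at 0.179, 0.185 and 0.173 times Pccb (log2 ratio -2.48 ± 0.05). The Bckdha to Bckdhb ratio was 1.72, 1.76 and 2.87 in the same libraries, the last being rat 3. Bcat2 was 8.35, 16.7 and 7.80 times Bcat1, a ratio in which Bcat1 is under 0.14 FPKM.

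Differences between the rat libraries were uneven over the set, and rat 3 was the lowest library for most members. Of the 44 genes at 1 FPKM or more, 33 (75.0%) were lowest in rat 3, against 28.9% of all rows at 1 FPKM or more. On the log2(FPKM + 1) scale, 36 of the 44 were below their own mean in rat 3, against 4782 of all 9994 rows. The median difference of log2(FPKM + 1) was -0.25 for rat 3 less rat 2 and -0.14 for rat 3 less rat 1, against -0.05 and 0.06 over all rows. Summed over the set, FPKM were 15566, 15863 and 12725.5, which was 2.93%, 3.01% and 2.39% of each table without albumin. The count lowest in rat 3 was 34 of 44, against 34.7% of rows, when libraries were first scaled by the median ratio over all rat rows.

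Rat 2 was the highest library for 33 of 44 members, against 49.0% of all rows. With the median-ratio scaling, this count was 22 of 44 against 36.4%, and rat 1 was highest for 19 in place of 8. In all, 27 members (61.4%) were highest in rat 2 and lowest in rat 3 together, against 19.9% of all rows. With the scaling this count was 19, and the share of all rows was not computed for that setting. By group, members lowest in rat 3 numbered 3 of 4 aminotransferases, 5 of 7 aromatic, 5 of 6 serine and glycine, 7 of 9 sulphur, 3 of 4 histidine, 2 of 3 proline, 0 of 1 lysine and 8 of 10 branched-chain genes. Each such count rests on 1 library, so no test of rat 3 against the others was possible.

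**Figure D4:**
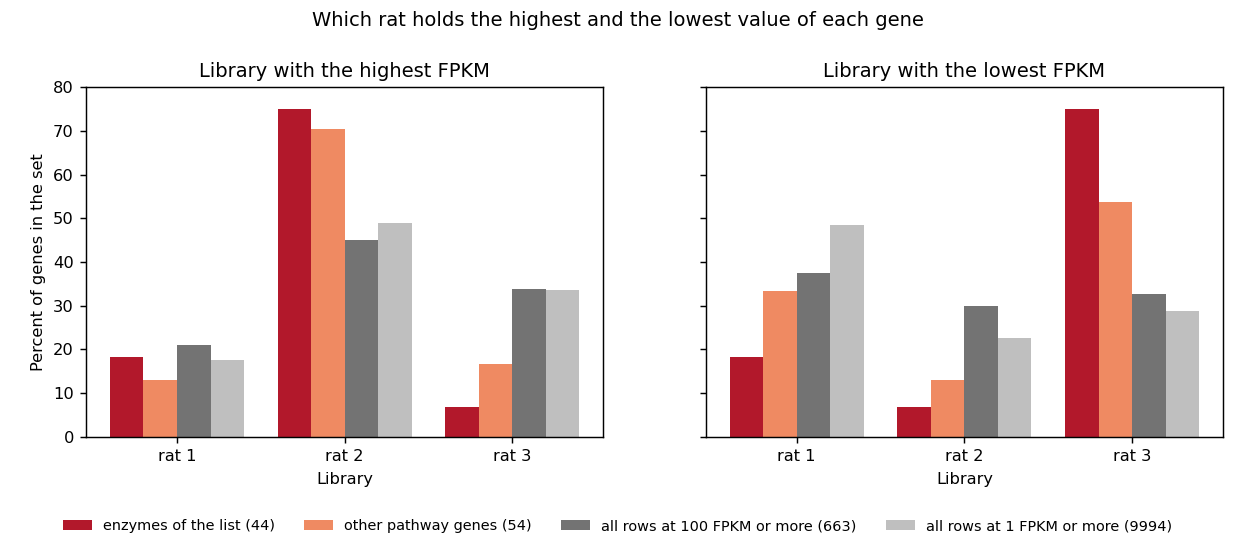
Share of genes for which each rat library was the highest or the lowest, for the 44 members at 1 FPKM or more, 54 other amino acid pathway genes, 663 rows at 100 FPKM or more and 9994 rows at 1 FPKM or more. Rat 3 is the lowest library for 75.0% of the members and 28.9% of all rows.

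Markers of other cell types also differed between these libraries, and the sums given above for macrophages, cholangiocytes and T or B cells were highest in rat 3. In each library Cd4 held most of the T or B cell sum and Epcam most of the cholangiocyte sum. Each of these sums therefore rests largely on 1 gene. Of the T or B cell genes, Cd3e and Cd3d were highest in rat 2 and the others in rat 3. The cholangiocyte genes with a row were all highest in rat 3, but only Epcam and Krt19 averaged 1 FPKM or more. All 6 Kupffer or macrophage markers at 1 FPKM or more were highest in rat 3, against 3350 of all 9994 rows. With the median-ratio scaling, for which the share of all rows was not computed, it was again all 6 markers. Among them, Cd68 was at 17.1, 17.6 and 24.7 FPKM, C1qa at 88.4, 87.4 and 113 FPKM and Clec4f at 61.2, 71.2 and 81.1 FPKM. The stellate cell sum was likewise highest in rat 3, but its genes were divided. Des, Dcn and Lrat were highest in rat 3, and Pdgfrb, Col1a1, Col1a2 and Reln in rat 1. The sinusoidal endothelium sum was highest in rat 1 and lowest in rat 3, but its genes were also divided. Stab2, Lyve1 and Clec4g were highest in rat 1, Pecam1 and Fcgr2b in rat 2 and Cdh5 in rat 3. Only Pecam1 and Lyve1 were lowest in rat 3. Hbb was lower in rat 1 than in the other libraries. Of the 9 hepatocyte markers with a row, 3 were lowest in rat 3 (Hnf4a, Cps1 and Ahsg), 4 in rat 2 and 2 in rat 1. Their similar sums held genes that differed in opposite directions. Fgb, a fibrinogen chain, was at 8594, 2256.5 and 8667 FPKM, whereas Ttr, the transthyretin gene, was at 9869, 12914 and 10322 FPKM. The part of these in the rat 3 values was not tested. In bulk tissue, fewer cells of a type and less RNA per cell cannot be told apart.

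**Figure D5:**
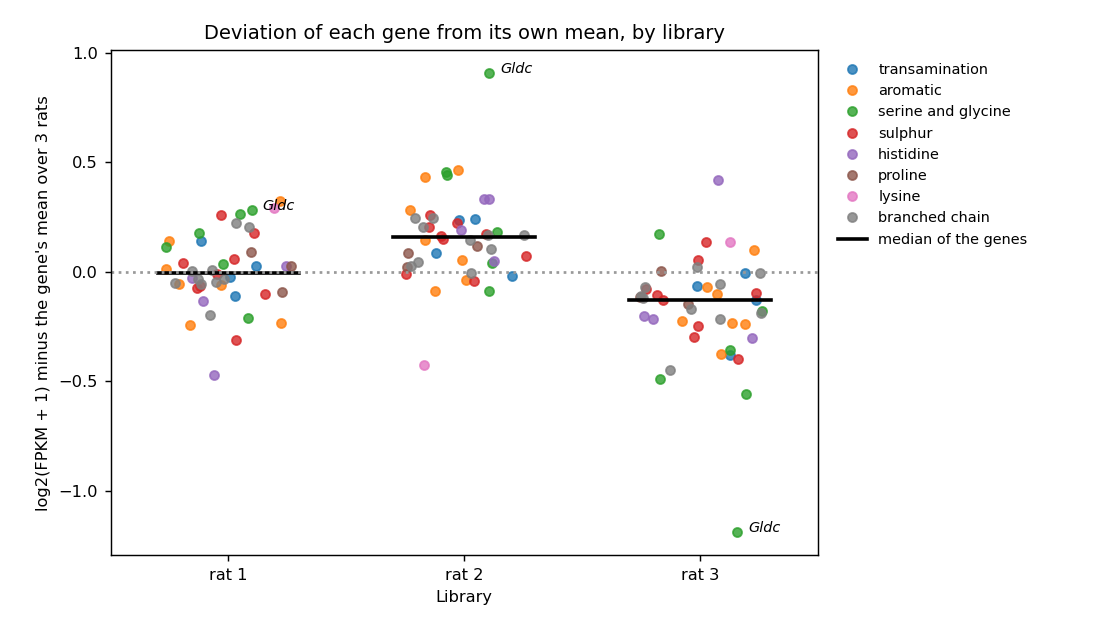
Log2(FPKM + 1) of each member in each rat library less its own mean over the 3 libraries, coloured by amino acid group, with a bar at the median. In rat 3, 36 of 44 members at 1 FPKM or more lie below 0, and Gldc lies farthest down. Of all 9994 rows at 1 FPKM or more, 4782 were below their own mean in rat 3.

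Of the 44 members, 11 (25.0%) had a highest library at least 1.5 times the lowest, against 18.9% of all rows. With the median-ratio scaling the count was 14 of 44, against 17.7%. The 11 without the scaling were Gldc, Agxt2, Sds, Amdhd1, Kynu, Aass, Kmo, Bckdhb, Uroc1, Gpt and Bhmt, with ranges from 4.45-fold down to 1.54-fold. With the scaling, Tdo2, Shmt2 and Gnmt were added to them. The unscaled count was 9 without rat 1, 4 without rat 2 and 3 without rat 3. The median SD of log2(FPKM + 1) was 0.21 for the members and 0.14 for all rows. By group it was 0.39 for serine and glycine, 0.30 for histidine, 0.26 for aromatic, 0.18 for sulphur, 0.16 for branched-chain, 0.14 for aminotransferase and 0.10 for proline genes.

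The wider list of 70 genes of the same pathways gave a comparison within amino acid metabolism. Of these, 60 had a rat row, 54 were at 1 FPKM or more and 18 at 100 or more, with a median of 54.8 FPKM. Among the highest were Tat, the tyrosine aminotransferase (also on the hepatocyte list), and Acadm, the medium-chain acyl-CoA dehydrogenase, at 419, 521 and 446 FPKM. Tat was at 1023, 429 and 1220.5 FPKM, so that rat 2 was the lowest for this first enzyme of tyrosine breakdown, unlike Hpd, Hgd and Fah. Sqrdl, which oxidises sulphide, showed the same order, at 45.6, 19.4 and 50.3 FPKM. Tat, Ppm1k and Sqrdl had the largest spreads of the list.

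In that list, 29 of 54 genes were lowest in rat 3, against 28.9% of all rows, and 38 were highest in rat 2, against 49.0%. After the median-ratio scaling, 35 of 54 were lowest in rat 3, against 34.7%, and 31 were highest in rat 2, against 36.4%. Of the 14 branched-chain genes on the list, 14 were highest in rat 2 without the scaling, which with the members makes 23 of 24. With the median-ratio scaling it was 18 of 24, against 36.4% of all rows. Under 1 FPKM were Phgdh and Psat1, which act in serine synthesis, with means of 0.432 and 0.647 FPKM. Pycr1, which acts in proline synthesis, had a mean of 0.386 FPKM. The other genes of the list under 1 FPKM were Tdh and Hdc, with means of 0.110 and 0.410 FPKM, and Ido1, listed at 0. The genes under 1 FPKM were named after their values were seen.

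For naked mole rat, the only member with a row was ACAD8, the isobutyryl-CoA dehydrogenase of valine breakdown. It was at 1.35 FPKM in NMR 1, 1.18 in NMR 2 and 1.78 in NMR 3 (1.44 ± 0.31, SD, n = 3), with 287 naked mole rat rows higher. Its row spans 3200933 bp and overlaps that of JAM3, so the value need not belong to ACAD8 alone. Acad8 had no row in rat, and no comparison between species was made.

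Only 3 genes of the wider list had a row in both species, and none was a member. GCSH, the carrier protein of the glycine cleavage system, whose naked mole rat row overlaps that of OR2G3, was listed at 0 in 3 of 3 naked mole rat libraries and was at 73.6, 83.6 and 69.0 FPKM in rat. An exact 0 in a table without counts can be a failed estimate, so it was not read as a level, and no test of GCSH is given. HSD17B10, which acts in isoleucine breakdown, was at 81.6, 56.7 and 80.8 FPKM in naked mole rat and at 286, 328 and 272 in rat (log2 difference -1.82 ± 0.17, SE, limma adjusted p = 2.24e-05). PYCRL, an enzyme of proline synthesis, was at 4.50, 5.11 and 4.83 FPKM against 13.5, 17.1 and 19.0 (log2 difference -1.41 ± 0.13, SE, limma adjusted p = 2.3e-05). These log2 differences are of median-ratio scaled values, whereas the FPKM printed are as deposited. On FPKM as deposited the log2 differences were -2.02 for HSD17B10 and -1.58 for PYCRL. The libraries of the species did not overlap for HSD17B10 or PYCRL.

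HSD17B10 and PYCRL were called higher in rat by limma (adjusted p below 0.05 with a log2 difference of 1 or more), against 73.6% of 288 symbols called in either direction and 41.0% called higher in rat. Symbols at 0 in naked mole rat, such as GCSH, were not left out of these shares or of the counts of calls. The calls divided into 94 in favour of naked mole rat and 118 in favour of rat, but 169 and 108 when each library was scaled to the same total and 111 and 101 with quantile normalization. Under those scalings HSD17B10 was at -0.84 and -0.74 and PYCRL at -0.58 and -0.82, under the size needed for a call. The naked mole rat rows of HSD17B10 and PYCRL span 388836 and 2173237 bp and overlap those of RIBC1 and UTP3.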

How the data were processed

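The authors deposited 1 table of FPKM per library, with the columns of a Cufflinks gene table per the file headers. Cufflinks 2.1.1, TopHat2 2.0.9, Picard 1.137 and Bowtie2 2.1.0 are listed in the submitters' processing notes. Builds and annotations were not given in the sources used here. The FPKM sums of the tables were 527133 to 557187 in rat and 17543.2 to 21793.5 in naked mole rat, and the Pearson r of log2(FPKM + 1) between rat libraries, across genes, was 0.984 to 0.986. Albumin carries the status HIDATA, with too many fragments to estimate, in 2 rat libraries and was treated as missing. Of 135 member values above 0, 98 fell outside the confidence bounds of the same row, and the bounds were left out. FPKM carry no counts, so no count model and no counting interval was used.

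Members and lists were chosen with earlier results of these data known. Rows were matched by symbol without regard to case. Levels, spreads and ratios were computed with Python 3.11.15 and pandas 2.3.3 on rows averaging 1 FPKM or more, and spreads on log2(FPKM + 1), which understates differences of low genes. The species were compared in R 4.3.3 by limma 3.58.1, taking log2(scaled FPKM + 1) in 3 libraries against 3, with an intensity trend, median-ratio scaling over shared symbols, symbols kept where 3 or more libraries reached a scaled FPKM of 1, and Benjamini-Hochberg adjustment over all symbols. The limma step was tested on simulated data. Values are given in each library for the 3 highest members per amino acid group, the 8 with the largest spread, both genes of each pair, members under 1 FPKM or with a naked mole rat row, the 3 highest and the 3 most variable other pathway genes and any of those with a naked mole rat row; other values were chosen after they were seen. One gene that this rule takes is not reported here. Alternatives were scaling, pseudocount, filter, trend, a replicate block, 1 row per symbol, LOWDATA rows and leaving out each library. The counts of members lowest in a library and of 1.5-fold ranges, with their alternatives, were added after seeing the data. Marker lists covered hepatocytes, Kupffer cells or macrophages, sinusoidal endothelium, stellate cells, cholangiocytes, T or B cells and erythroid cells.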

Additional observations from a re-analysis of the deposited data

How the results depend on the processing

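Leaving out each rat library gave a median member spread of 0.136 to 0.185 in place of 0.209 on the log2(FPKM + 1) scale. Members highest in rat 1 numbered 8, 19 with the median-ratio scaling, and 9 to 35 with a library left out, and members lowest in rat 1 numbered 8, and 9 to 35. Members lowest in rat 2 and members highest in rat 3 each numbered 3, and 5 to 9 with a library left out. Members with a 1.5-fold range numbered 11, and 3 to 9. With 1 library fewer, each gene has fewer places to be highest or lowest and a smaller range by construction. Members highest in rat 2 numbered 22 with the scaling and 35 to 39 with a library left out, and members lowest in rat 3 numbered 34 and 35 to 39. The median level was 121 to 136 FPKM, and 26 to 27 members reached 100 FPKM. Calls between species numbered 212, and 214 to 221 with a library left out, 277 with the same total, and 212 with the replicate block, which kept HSD17B10 and PYCRL called. Replicate numbers did not pair the libraries: same-numbered libraries correlated at -0.036, -0.086 and -0.043 in their deviations from the group means. The calls of HSD17B10 and PYCRL were lost with the same total and with quantile normalization; the cause was not tested. No member had a row in both species, so the count of members called has no value under any setting.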
